A study of Homo sapiens with 6 samples.

Results

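The transcripts described here are the neuropilins NRP1 and NRP2 and the vascular endothelial growth factors VEGFA, VEGFB and VEGFC. They were taken as every gene of the measured panel whose symbol is NRP1 or NRP2 or starts with VEGF, which gave 5 of 770 genes. RNA came from HCT116, a human colorectal carcinoma line, as wild type (WT) cells and as the p21-/- derivative, in which both copies of CDKN1A, the gene of the cell cycle inhibitor p21, are disrupted. Each line was represented by 3 biological replicates, grown untreated and collected before reaching confluence. The knockout line was a gift to the study's laboratory, and its labels speak of clones without giving their number. The labels give RPMI as the medium of both lines while the study's methods give DMEM for p21-/- cells, so a difference of clone or medium cannot be told apart from the genotype.

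Neuropilins are transmembrane receptors whose short cytoplasmic tails carry no kinase. They bind class 3 semaphorins together with plexins, and they bind heparin-binding forms of VEGF together with the receptor tyrosine kinases FLT1, KDR and FLT4. VEGFA is the main angiogenic ligand and a classical target of the hypoxia-inducible factors, VEGFB binds FLT1 and NRP1, and VEGFC acts on lymphatic vessels through FLT4 and can use NRP2. Tumor cells are known as a source of VEGF ligands, and epithelial tumor cells can carry neuropilins without the kinase receptors.

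Values are normalized counts of hybridised barcodes, in which a value at or under the background of a sample had been replaced by a floor of 25.7 to 34.9. The samples held between 867421 and 1335466 barcode counts above that floor. CDKN1A, the targeted gene, ranged from 4133 to 5659 normalized counts in WT cells and from 388 to 460 in the knockout. Of the 8 endothelial markers measured, 7 were at the floor in all samples, KDR, FLT1 and FLT4 among them, and PECAM1 rose above it by a few counts in 2 p21-/- samples only. The summed level of the endothelial list was 238 to 280 in WT cells against 207 to 278 in the knockout, nearly all of it floor values. Both immune markers were at the floor in all samples. Of the 8 fibroblast markers, COL1A1 was above the floor in all samples and fell in p21-/- cells (log2 fold change -1.73), PDGFRB was called higher from the floor in WT cells (adjusted p = 0.00376, but 0.120 with floor values at their upper limit and 0.158 with housekeeping scaling), and the summed list was 418 to 477 in WT cells against 284 to 333 in the knockout. The part of these lists in the results was not tested. All 3 measured epithelial markers were well above the floor. CDH1 and KRT19 fell with log2 fold changes of -3.23 and -0.52, and EPCAM was called higher at 0.22. The call of EPCAM was lost in 7 of 18 alternatives, among them the turn to -0.17 after scaling to housekeeping candidates and leaving out WT replicate 2 (adjusted p = 0.0705) or p21-/- replicate 1 (0.223), 2 (0.0892) or 3 (0.113).

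In p21-/- cells both neuropilins were higher, VEGFA was lower, VEGFB was modestly higher and VEGFC stayed at the floor. Of the 5 members, 3 were called higher and 1 lower at an adjusted p below 0.05, where 47.8% of all 770 genes were called in either direction, 21.8% higher and 26.0% lower. Calls came from limma on log2(value + 1), fitted over all 770 genes with Benjamini-Hochberg adjustment. Among the 446 genes that cleared the floor in every sample 70.2% were called, so a call alone does not set the members apart from the panel. Values did not overlap between the lines for 4 members, as for 52.2% of all genes. NRP1 ranked 14 by p over all genes, NRP2 and VEGFA ranked 143 and 142, and VEGFB ranked 282.

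NRP1, the co-receptor that binds VEGFA and semaphorin 3A, was measured at 155, 179 and 241 normalized counts in replicates 1, 2 and 3 of WT. In the p21-/- replicates it had 1775, 1817 and 1849. The highest WT sample therefore lay far below the lowest p21-/- sample. The means were 192 ± 44.3 and 1814 ± 37.4 (SD, n = 3 each), a 9.47-fold rise. On the log2(value + 1) scale the change was 3.26 (95% interval 2.96 to 3.56, standard error 0.141, adjusted p = 1.75e-11 from limma). The WT values rested on 103, 159 and 206 barcodes and the p21-/- values on 1645 to 2090. The replicates of WT spread with an SD of 0.32 log2 units, which is larger than in 85.7% of the 446 genes above the floor, and those of p21-/- with 0.030.

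NRP2, which binds semaphorin 3F and VEGFC, was close to the background in WT cells. It was at the floor of 29.8 in WT replicate 1 and at 48.3 and 53.8 normalized counts in replicates 2 and 3. In the p21-/- replicates it stood at 131, 150 and 131, again with no overlap between the lines. The rise was 1.66 on the log2(value + 1) scale (95% interval 1.21 to 2.10, standard error 0.209, adjusted p = 4.78e-06 from limma). Its depth was thin, with 43 and 46 barcodes in the measured WT samples (exact Poisson 95% intervals 31.1 to 57.9 and 33.7 to 61.4, covering counting error only) and 121 to 165 in p21-/- samples. With WT replicate 1 set to the upper limit of its floor, 44.9, the geometric means differed 2.80-fold, and with the negative controls subtracted from every value the log2 change was 2.47.

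VEGFA moved the other way. Its normalized counts were 3463, 5317 and 5478 in replicates 1, 2 and 3 of WT and 2237, 2260 and 2158 in the p21-/- replicates. WT replicate 1 stood well below the other WT samples and still above every p21-/- sample. The mean fell from 4752 ± 1120 to 2218 ± 53.5 (SD, n = 3 each), a log2 change of -1.07 (95% interval -1.36 to -0.78, standard error 0.135, adjusted p = 4.78e-06 from limma). Without WT replicate 1 the change was -1.28. At 2074 to 4733 barcodes per sample, counting error was at most 2.20% of a value, whereas WT replicates spread by 0.37 log2 units, more than 91.3% of the genes above the floor.

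VEGFB, a ligand of FLT1 with little angiogenic activity of its own, had 426, 383 and 416 normalized counts in WT cells. The p21-/- replicates had 552, 589 and 567, so the lines did not overlap. The log2 change was 0.48 (95% interval 0.24 to 0.72, standard error 0.113, adjusted p = 0.00195 from limma), with an SD between replicates of 0.081 in WT and 0.046 in p21-/- cells. The size of this rise moved with the scaling between samples. The 30 measured housekeeping candidates rose by a median of 0.38 log2 units as deposited, and with the samples scaled to these candidates the change of VEGFB was 0.094 (95% interval -0.13 to 0.32, adjusted p = 0.403). Relative to the median of the 446 genes above the floor, it was 0.53 higher under both scalings. That equality is arithmetic, since scaling to the candidates shifts all genes of a sample alike, and does not show that the rise held.

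VEGFC held the floor value in all 6 samples, so that no level and no fold is given for it. FIGF, the older symbol under which the panel lists VEGFD, the other lymphatic ligand, was above the floor but low. WT cells gave 51.2, 56.2 and 46.8 normalized counts and the knockout 70.1, 69.2 and 61.1. The lines did not overlap, but the log2 change of 0.37 (standard error 0.163) did not pass the threshold (adjusted p = 0.0750 from limma). It passed in 5 of 18 alternatives, which were median scaling (0.58, adjusted p = 0.00682), quantile normalization (0.0417), constant prior variance (0.0220), floor values at their upper limit (0.0447) and the filter on genes above the floor (0.0425). It was -0.0067 when scaled to the housekeeping candidates.

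**Figure D1:**
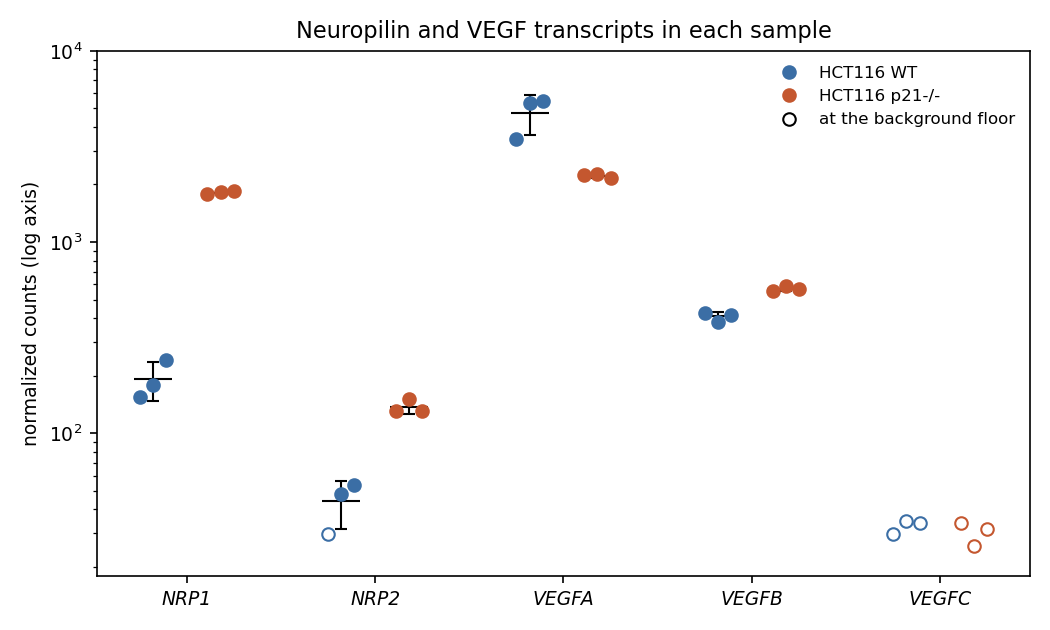
Normalized counts (log axis) of the 5 transcripts in each of 3 WT and 3 p21-/- samples, with black marks at the mean and bars of 1 SD for all but VEGFC; open circles are values at the background floor, including NRP2 in WT replicate 1. NRP1 sits between 155 and 241 in WT and between 1775 and 1849 in p21-/- samples, and VEGFA between 3463 and 5478 against 2158 to 2260.

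The signed changes kept their order under the 4 scalings tried. The log2 change of NRP1 was 3.26 as deposited, 3.47 after scaling each sample to the median, 3.49 after quantile normalization and 2.88 after scaling to the housekeeping candidates. NRP2 had 1.66, 1.87, 1.84 and 1.28 under the same settings. VEGFA had -1.07, -0.86, -0.95 and -1.45, and VEGFB had 0.48, 0.69, 0.76 and 0.094. The median of the 446 genes above the floor itself moved, from -0.050 to 0.16, 0.13 and -0.43. Against that median, NRP1 was 3.31, 3.31, 3.36 and 3.31 higher and VEGFA 1.02, 1.02, 1.08 and 1.02 lower. Median and housekeeping scaling multiply all values of a sample by the same factor. Under them these differences and the order of the members had to stay nearly as deposited. Only quantile normalization could have changed them.

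**Figure D2:**
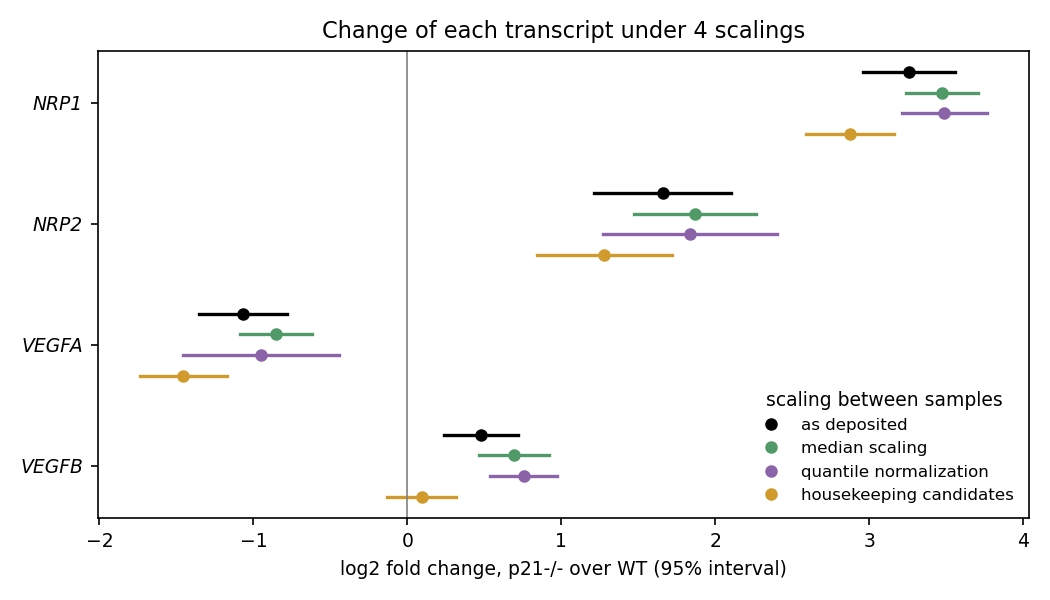
Log2 fold change of p21-/- over WT with its 95% interval from limma, for 4 transcripts under the deposited scaling, median scaling, quantile normalization and scaling to 30 housekeeping candidates. The intervals of NRP1, NRP2 and VEGFA stay on their side of 0 under all 4, and that of VEGFB reaches from -0.13 to 0.32 under the last.

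Ratios within a sample do not depend on the scaling between samples. They were used to ask whether members changed by different amounts, and not to set the level of a probe against that of another. The log2 ratio of NRP1 to VEGFA was -4.48, -4.90 and -4.51 in WT replicates and -0.33, -0.31 and -0.22 in p21-/- replicates. The co-receptor thus gained 4.34 log2 units on the ligand (standard error 0.139), a 20.2-fold shift. NRP1 also gained 2.79 (standard error 0.195) on VEGFB and 1.58 (standard error 0.158) on NRP2, the latter 0.88 with background subtracted. NRP2 gained 2.75 on VEGFA (standard error 0.0783) and 1.20 on VEGFB (standard error 0.293), and with background subtracted these were 3.62 and 2.04. All 3 ratios with NRP2 are limited by its floor value in WT replicate 1. Between the ligands, VEGFA lost 1.55 log2 units on VEGFB (standard error 0.248), from 3.02, 3.79 and 3.72 in WT to 2.02, 1.94 and 1.93 in p21-/- replicates. None of the 6 ratios overlapped between the lines. They share members whose own values did not overlap either, as for 52.2% of all 770 genes. The share over other pairs of genes was not computed. Each ratio gave an exact two-sided permutation p of 0.1, also 0.1 after adjustment over the 6 pairs, which is the smallest that 3 against 3 samples allow.

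**Figure D3:**
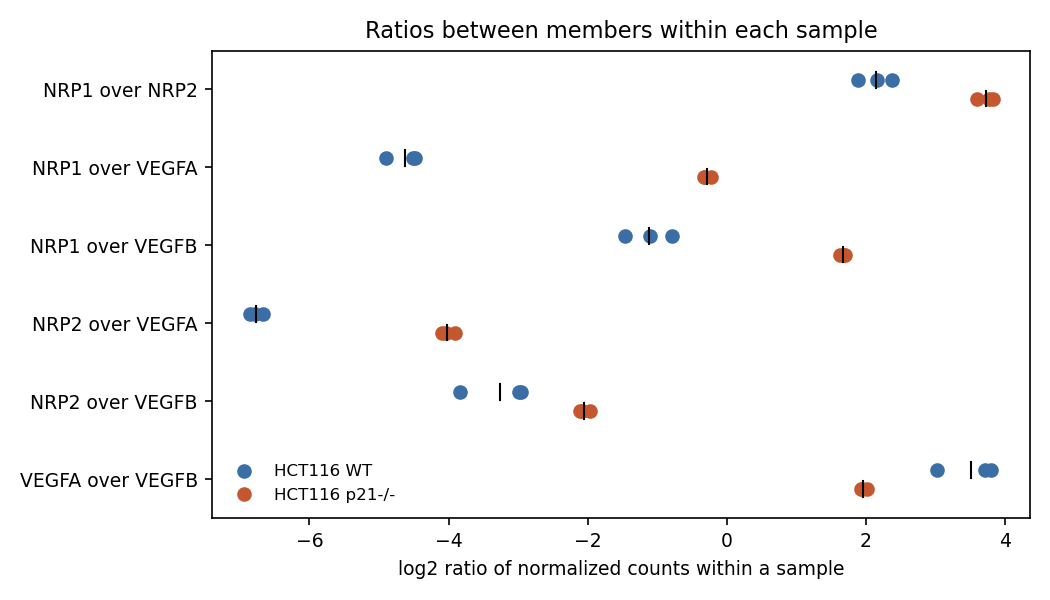
Log2 ratio of the normalized counts of each pair of transcripts within each sample (points, 3 per line; black bars are means of a line). In all 6 pairs the p21-/- points lie apart from the WT points, by 4.34 log2 units for NRP1 over VEGFA and by 1.20 for NRP2 over VEGFB, where the lowest WT point holds a floor value.

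Promoter windows of RefSeq on GRCh38.p14 are printed here, 300 bases around the annotated start and written 5′ to 3′ on the gene's strand. GC box cores are in capitals (GGGCGG on either strand, overlapping matches included). Windows were sought for all 5 members, and 3 were matched by symbol. These were NRP2 and VEGFB, which rose, and VEGFC, which stayed at the floor. NRP1, with the largest rise, and VEGFA, which fell, had no matched window. The windows are chr2:205682251-205682550 on the plus strand for NRP2, chr11:64234334-64234633 on the plus strand for VEGFB and chr4:176792873-176793172 on the minus strand for VEGFC.
NRP2: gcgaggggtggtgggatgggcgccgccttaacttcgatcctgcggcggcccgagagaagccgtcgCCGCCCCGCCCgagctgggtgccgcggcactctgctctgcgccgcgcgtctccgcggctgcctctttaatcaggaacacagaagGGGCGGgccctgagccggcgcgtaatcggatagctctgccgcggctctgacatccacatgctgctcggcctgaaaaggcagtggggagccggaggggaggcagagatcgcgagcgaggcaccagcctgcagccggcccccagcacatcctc
VEGFB: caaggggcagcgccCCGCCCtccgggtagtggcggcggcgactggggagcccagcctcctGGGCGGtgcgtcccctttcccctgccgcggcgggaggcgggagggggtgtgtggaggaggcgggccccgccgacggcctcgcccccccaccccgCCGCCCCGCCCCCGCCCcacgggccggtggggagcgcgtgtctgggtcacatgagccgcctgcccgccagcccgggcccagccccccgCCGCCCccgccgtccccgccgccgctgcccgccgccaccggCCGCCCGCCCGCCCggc
VEGFC: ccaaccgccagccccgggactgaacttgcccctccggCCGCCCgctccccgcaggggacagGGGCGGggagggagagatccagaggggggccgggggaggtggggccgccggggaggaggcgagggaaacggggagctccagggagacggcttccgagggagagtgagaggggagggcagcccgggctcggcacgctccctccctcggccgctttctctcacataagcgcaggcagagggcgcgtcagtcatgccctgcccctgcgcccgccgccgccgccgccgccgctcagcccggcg
NRP2 held 3 such cores, VEGFB 9 and VEGFC 2, where 45.0% of the 35116 windows in the table hold at least 1. Their GC content was 70.0%, 84.7% and 76.3%, against a median of 58.7% over all windows. The letters CAGGTG, the E-box form bound by the SNAI and ZEB repressors, were on neither strand of the 3 windows and occur in 20.6% of all. The hypoxia response core was searched as ACGTG, present in 21.4% of windows and in none of the 3, and as GCGTG, present in 36.5% and once each in VEGFB and VEGFC. A match or its lack describes these letters only.

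The kinase receptors of the pathway were not detectable at this depth. FLT1, KDR and FLT4, through which the VEGF ligands signal, were at the floor in all 6 samples. Of the 3 semaphorin and plexin genes on the panel, PLXNC1, a semaphorin receptor, had a mean of 35.2 ± 5.57 in WT cells (SD, n = 3), where only 1 sample was above the floor, and of 60.7 ± 4.95 in the knockout (SD, n = 3). It was called higher. PLXND1, the plexin that binds semaphorin 3E, fell from 363 ± 47.0 to 225 ± 17.6. SEMA3E, its ligand, had 104 ± 30.5 and 91.3 ± 4.66, a log2 change of -0.15 that missed the threshold (adjusted p = 0.536 from limma) and was 0.062 after median scaling, 0.17 after quantile normalization and 0.077 without WT replicate 3. After scaling to the housekeeping candidates it was called lower (-0.53, adjusted p = 0.0223).

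Among 8 measured partners of neuropilins, which are receptors, integrins and the ligands HGF and TGFB1, 4 fell and 2 rose. Over all 770 genes 47.8% were called, and 70.2% of the 446 above the floor in all samples. MET, the HGF receptor, fell by 1.48 on the log2 scale (standard error 0.0846) and ITGB1, the integrin beta 1 subunit, by 1.15 (standard error 0.0793). PDGFRB and ITGB3 held floor values in WT cells and were at least 1.22-fold and 1.09-fold higher in the knockout. Both lost their call with floor values at their upper limit and with housekeeping scaling. ITGB3 also lost it without WT replicate 1 (adjusted p = 0.0854), WT replicate 3 (0.0709) or p21-/- replicate 3 (0.149), after quantile normalization (0.0966) and with the replicate block (0.0947). HGF was at the floor in all samples. The median log2 change was -1.10 over the 5 partners above the floor in all samples, beside -0.050 over the 446 such genes, and -0.49 over all 8, beside -0.12 over all 770 genes, which is the value that floor entries take.

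Genes that store or release VEGF in the matrix split in direction, with 1 of 9 called higher and 2 lower. HSPG2, encoding the heparan sulfate proteoglycan perlecan, had means of 625 ± 172 and 91.0 ± 14.8 (SD, n = 3 each) in WT and knockout cells and fell with a log2 change of -2.74. HPSE, encoding heparanase, fell by 0.65 log2 units. PLAU, the urokinase gene, rose by 0.64 and lost its call after quantile normalization (adjusted p = 0.0585) and after scaling to the housekeeping candidates (adjusted p = 0.149). The change of PLAU was 0.40 without WT replicate 1 and 0.84 without WT replicate 2. MMP9, at the floor in WT cells, joined it without p21-/- replicate 1 (adjusted p = 0.0123) and after median scaling (adjusted p = 0.00587). With 4 of its 9 genes at the floor in all samples, the list is described by its 4 genes above the floor throughout, whose median log2 change was -0.35, beside -0.050 over all 446 such genes. Of the 5 inhibitors of angiogenesis, 3 rose and 1 fell, where 47.8% of all 770 genes were called. THBS1, encoding thrombospondin 1, rose from 235 ± 12.3 to 1059 ± 62.0 (SD, n = 3 each), and VASH1, encoding vasohibin, by 0.78 log2 units. SERPINF1, encoding PEDF and named after its values were seen, was called higher at 0.62 (adjusted p = 0.0443 from limma) with WT replicate 1 at the floor. Without that sample the change of SERPINF1 was 0.28 (adjusted p = 0.267), and its call was also lost without p21-/- replicate 1 (0.0722), after quantile normalization (0.0817), with housekeeping scaling (0.360), with constant prior variance (0.0704) and with the filter on genes above the floor (0.0651). COL18A1, whose collagen is the source of endostatin, fell from 1296 ± 233 to 585 ± 67.4. The median log2 change of the inhibitors was 0.62, the value of SERPINF1, and 0.78 over the 3 above the floor in all samples, beside -0.12 over all genes and -0.050 over the 446 above the floor.

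**Figure D4:**
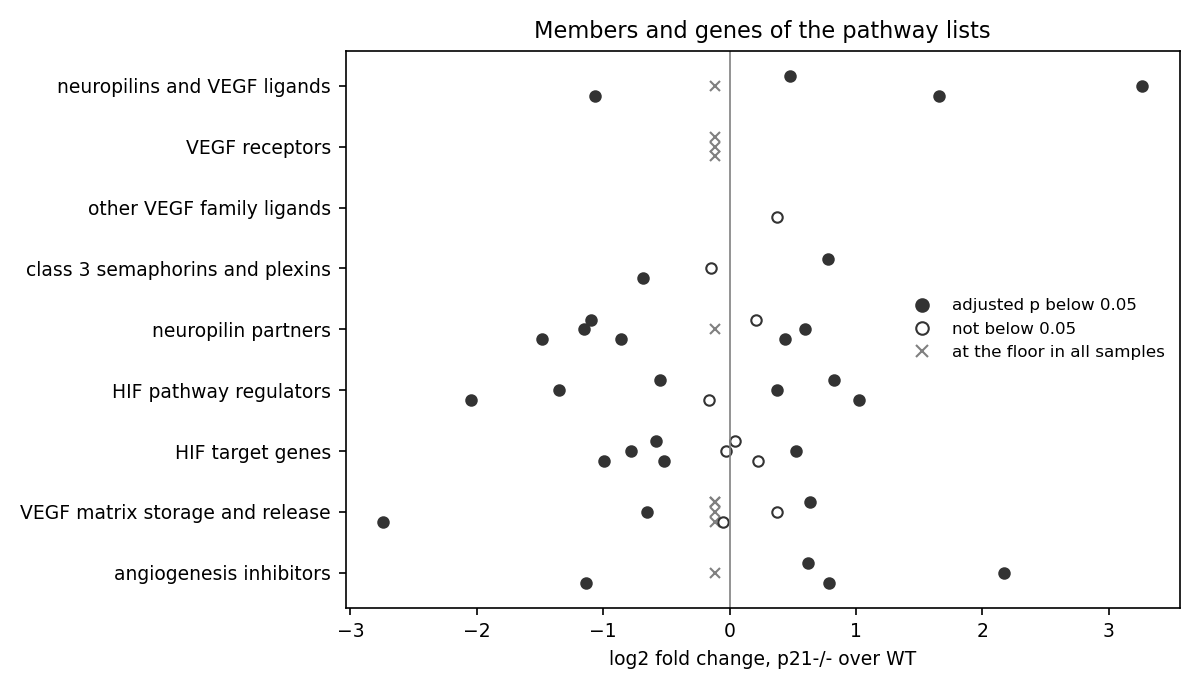
Log2 fold change of p21-/- over WT for the 5 members and for the measured genes of 8 pathway lists, each point a gene, filled where its adjusted p from limma is below 0.05, open where not, and a cross where all 6 samples are at the floor. The lists spread to both sides of 0, while all VEGF receptors are crosses.

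VEGFA is a target of the hypoxia-inducible factors, and genes of that pathway were measured beside it. Of 7 regulators, all above the floor, 3 rose and 3 fell, where 70.2% of the 446 genes above the floor were called. Their median log2 change was -0.17, beside -0.050 over those genes. EGLN3, a prolyl hydroxylase that is itself induced by hypoxia, fell by 2.04 on the log2 scale (standard error 0.245) and EPAS1, encoding HIF-2 alpha, by 1.35 (standard error 0.135). CREBBP, a coactivator, rose by 1.02 and EGLN2, another prolyl hydroxylase, by 0.83. HIF1A, named after its values were seen, had a log2 change of 0.38 (adjusted p = 0.00862 from limma) as deposited and of -0.011 when scaled to the housekeeping candidates. Without WT replicate 1 the change of HIF1A was 0.23. Of 8 other targets, 4 fell and 1 rose, with a median log2 change of -0.27, beside -0.050 over all genes above the floor. NDRG1 fell by 0.99, a call lost after quantile normalization (adjusted p = 0.0611), and SLC2A1, encoding the glucose transporter GLUT1, by 0.78. LDHA was called higher at 0.53 (adjusted p = 0.0416), but its p21-/- values, 46550 to 48736, lay inside the WT range of 21182 to 49120, and without WT replicate 2 the change was 0.20 (adjusted p = 0.0808). Its call was also lost without WT replicate 3 (adjusted p = 0.0823) or p21-/- replicate 1 (adjusted p = 0.0627), with housekeeping scaling (0.571), with constant prior variance (0.118) and with the filter on genes above the floor (0.0824). Without WT replicate 1, in which most of these targets were highest among WT samples, 3 were called higher, LDHA (0.81), PFKFB4 (0.48) and ALDOA (0.41), and 4 lower. The number called lower was 2 after quantile normalization (SLC2A1 and ENO1), 3 after median scaling, where ENO1 lost its call (adjusted p = 0.0848), and 5 with housekeeping scaling, where PGK1 joined (-0.42, adjusted p = 0.0172).

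Within the WT line VEGFA did not follow these targets, a comparison chosen after the values were seen and made over 3 samples with no test. VEGFA was lowest in WT replicate 1, 0.43 log2 units below the WT mean. In the same sample 7 of the 8 targets had their highest WT value, from 0.23 above the WT mean for ENO1 to 0.88 for PFKFB4, and SLC2A1 was 0.053 above it. EGLN3 was also highest there, by 0.54. All 8 targets were lowest in WT replicate 2, where VEGFA was 0.19 above its mean. Over the 446 genes above the floor, 17.04% were highest in WT replicate 1 and 32.3% were lowest in WT replicate 2, while 59.0% were, like VEGFA, lowest in WT replicate 1. Highest and lowest WT values differed 3.06-fold for PFKFB4, 2.32-fold for LDHA and 1.58-fold for VEGFA, whereas the p21-/- replicates of these genes differed by 1.11-fold, 1.05-fold and 1.05-fold. The part of growth conditions in this spread was not tested.

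**Figure D5:**
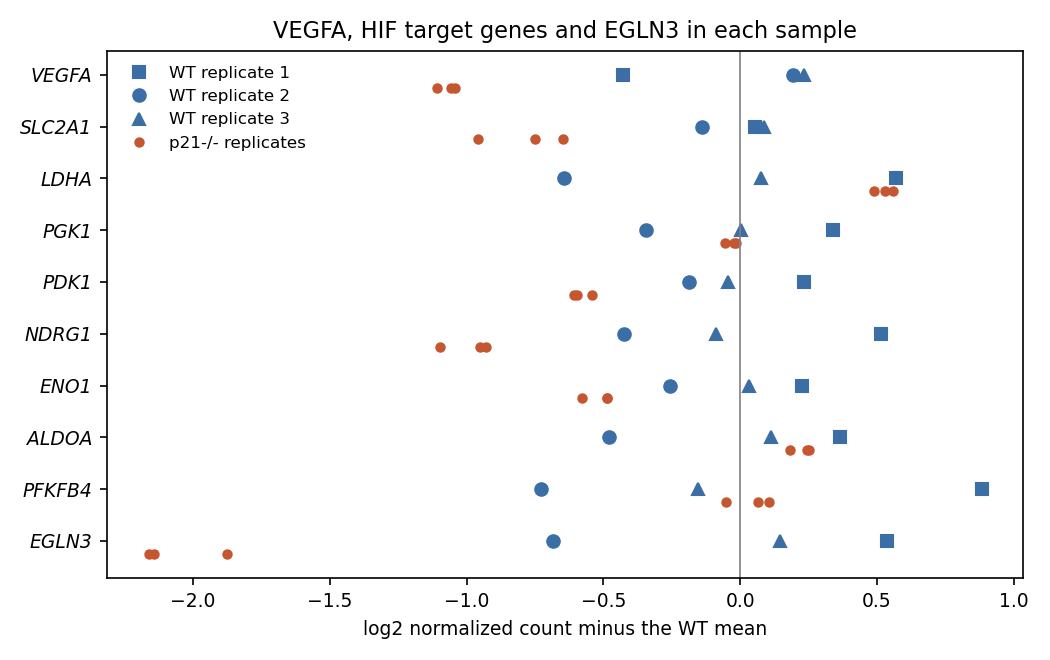
Log2 normalized count of each sample minus the mean of the WT samples, for VEGFA, 8 HIF target genes and EGLN3 (blue symbols are the WT replicates, orange points the p21-/- replicates). WT replicate 1 is the lowest WT sample for VEGFA, at -0.43, and the highest for all others but SLC2A1, up to 0.88 for PFKFB4.

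The panel genes whose profiles were most like those of the members were sought as the smallest Euclidean distance over the 6 samples between log2(value + 1) profiles with the WT mean subtracted, among 445 or 446 genes above the floor. This describes likeness in these samples, which is mostly the step between the lines. For NRP1 they were HLA-DPB1, an MHC class II chain, ISL1, a homeodomain factor, and THBS1, at distances of 0.995, 1.23 and 1.93, and the first of them rose by 2.70 on the log2 scale. NRP2 was nearest to SPHK2, a sphingosine kinase (0.212), to CKMT1A, a mitochondrial creatine kinase whose near-identical copy could share its probe (0.510), and to FGF2, a fibroblast growth factor (0.511). SPHK2 had means of 146 ± 32.3 in WT and 453 ± 34.4 in knockout cells (SD, n = 3 each). VEGFA was nearest to FRAS1, a matrix protein gene (0.278), ITGA5, the integrin alpha 5 subunit (0.295), and ARAP2 (0.348). ITGA5 pairs with integrin beta 1 and fell from 1670 ± 216 to 776 ± 50.9. Near VEGFB were VIT (0.133) and TCF3, an E-protein (0.148), whose calls, like that of VEGFB, were lost when the samples were scaled to the housekeeping candidates.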

How the data were processed

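Total RNA from 3 cultures each of HCT116 WT and p21-/- was hybridised to NanoString's PanCancer Progression probes. Groups and replicate numbers were taken from the deposited labels. The deposited gene values are a signal, counts that the authors normalized in nSolver to positive controls and housekeeping genes, with low values replaced by a floor set from the negative controls (their mean plus 2 SD). Control entries are raw counts. NanoStringDiff, the model of the methods, needs raw counts and was not run. Barcode counts were recovered by dividing values above the floor by the step of each sample, found from values under 500, of which 100% were whole multiples within 0.1 count. The steps were 1.12 to 1.51 in WT and 0.885 to 1.08 in p21-/- samples.

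Differential expression used limma 3.58.1 in R 4.3.3 (lmFit, eBayes with trend) on log2(value + 1), over 770 genes with Benjamini-Hochberg adjustment, two-sided, and was tested on simulated data. This scale understates changes of low genes. Ratios were compared by exact permutation of samples. The members and lists were chosen with earlier results of these data known. Named genes are the members, up to 2 rises and 2 falls of largest size per list, short lists in full, the 3 nearest profiles per member and CDKN1A. A gene that this rule named is not reported here. Housekeeping candidates were 50 symbols named from general knowledge, not from a panel annotation, and 30 of them were measured. Their geometric mean as deposited was 888 to 934 in WT and 1188 to 1200 in p21-/- samples. These candidates were thus not level between the lines after the authors' normalization, and the reason was not tested. Alternatives were pseudocounts, scalings, filters, prior variance, a weight per line, the replicate block and leaving out each sample. Upper limits for floor values, background subtraction and a filter on genes above the floor were chosen after seeing the data. Deviations of same-numbered WT and p21-/- samples from their line means correlated at 0.076, -0.054 and 0.052.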

Additional observations from a re-analysis of the deposited data

How the results depend on the processing

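NRP1, NRP2 and VEGFA kept direction and call under all 18 alternatives, with log2 changes of 2.88 to 3.49, 1.28 to 2.47 and -1.45 to -0.86. With each sample left out in turn they ranged from 3.12 to 3.44, from 1.41 to 1.82 and from -1.28 to -0.95, and VEGFB from 0.43 to 0.51. VEGFB lost its call under 1 of the 18, scaling to housekeeping candidates (0.094, adjusted p = 0.403), which lowers every p21-/- value. Under that scaling, and with floor values at their upper limit, 2 members were called lower, because VEGFC, at the floor throughout, followed the change made to floor values. Over the 44 genes of the 8 pathway lists, 11 were higher and 15 lower as deposited, 5 and 28 with scaling to housekeeping candidates, and 24 lower with floor values at their upper limit. Over all 770 genes the same settings gave 168 and 200, 97 and 529, and 392 lower, so the lists moved with the panel. After median scaling 59.8% of all called genes were higher in p21-/- cells, after quantile normalization 58.0% and with housekeeping candidates 15.5%, against 45.7% as deposited. EPCAM (-0.17), FIGF (-0.0067) and HIF1A (-0.011) changed sign with housekeeping candidates, and SEMA3E with median scaling (0.062), quantile normalization (0.17) and without WT replicate 3, with -0.27 to 0.077 over the samples left out. SEMA3E was called lower with housekeeping candidates (-0.53). With background subtracted, the shift of the log2 ratio was 0.88 for NRP1 over NRP2, 3.62 for NRP2 over VEGFA and 2.04 for NRP2 over VEGFB. That of NRP2 over VEGFA was 2.54 with a pseudocount of 10 and 2.56 with floor values at their upper limit. The replicate block left the log2 changes of the members as they were (3.26 for NRP1) and changed none of their calls, with 161 genes higher and 202 lower. A minimum mean of 20 removed no gene. The floor limits all statements on NRP2 in WT cells, VEGFC and the VEGF receptors.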
